A study of Oryctolagus cuniculus with 9 samples.

Results

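Glycolysis and gluconeogenesis genes were taken from the deposited gene table by its KEGG pathway annotation. They were the 56 genes, of 20525 in the table, whose entry named glycolysis and gluconeogenesis but none of the citrate cycle, branched-chain amino acid degradation or fatty acid degradation. The 3 exclusions removed 19 of the 75 genes that carried the glycolysis term. Of the 56 genes, 48 were described in the table as enzymes. Of these, 33 were placed at the 10 steps of glycolysis or at lactate dehydrogenase, BPGM among them. The rest were gluconeogenic phosphatases or enzymes of side branches, so the label of glycolytic enzymes did not hold for all 48. The other 8 carried an enzyme number of the pathway but were described as other proteins, namely the AT-rich interaction domain factors ARID5A and ARID5B, the splicing-associated LUC7L3, the microtubule cross-linking factor MTCL1, SOGA1, SOGA3, the ubiquitin-conjugating enzyme variant UEVLD and a keratin-associated protein gene, LOC108176793. These 8 are counted as members and are described apart from the enzymes.

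The libraries were made from polyadenylated RNA of rabbit (Oryctolagus cuniculus) vocal folds. There were 3 libraries of injured folds given a hydrogel named SOT and taken 1 week after injury, 3 of injured folds that received no treatment and were also taken 1 week after injury, and 3 of folds that were not injured, called normal. Strain, age, the depth of the injury and the make-up of the gel are not given in the labels, nor is it said that replicates were separate animals, so each p-value refers to the spread among these libraries, part of which could be technical. The title of the study calls the gel antioxidant and adhesive, and the comparisons address how injury and then the gel changed the fold.

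Glycolysis splits glucose into pyruvate in the cytosol and yields ATP, and lactate dehydrogenase turns the pyruvate into lactate when it is not oxidised in mitochondria. Gluconeogenesis runs the reversible steps backwards and bypasses the irreversible ones with its own phosphatases. At several steps vertebrates have separate genes for the same reaction, with a form enriched in skeletal muscle (PFKM, PGAM2, ENO3, FBP2), forms enriched in nervous tissue (ALDOC, ENO2) and forms found in most cells (PFKL, PFKP, PGAM1, ENO1). The vocal fold carries a skeletal muscle, the thyroarytenoid, under its mucosa, and neutrophils and activated macrophages are cell types known for heavy use of glycolysis.

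SOT libraries held 48444181 to 49434268 counts, untreated libraries 49771566 to 50338111 and normal libraries 44755718 to 45521838. The labels call the cells histiocytes, but they held transcripts of muscle, cartilage, gland and epithelium as whole tissue does. The summed level of 17 skeletal muscle markers was 10571, 2061 and 9727 CPM (the read count scaled to library size with TMM factors) in the SOT libraries, 9551, 987 and 4032 CPM in the untreated libraries and 30937, 25972 and 32542 CPM in the normal libraries. Replicate 2 of both injured groups was lowest in muscle transcripts. Of the 17 muscle markers, 11 fell and 6 did not pass in untreated against normal folds, and none was at 0 in all libraries. The summed level of 10 macrophage markers was 565 to 1005 CPM in SOT libraries, 1568 to 1876 CPM in untreated libraries and 266 to 319.8 CPM in normal libraries. In bulk tissue, fewer cells of a type and less RNA per cell cannot be told apart.

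Transcripts of every step of the pathway were present in all 9 libraries, and the balance between steps differed between injured and normal folds. Levels of whole steps are given as summed FPKM, the deposited value scaled by gene length and sequencing depth, because genes of unlike length are added. Aldolase transcripts summed to 578 ± 173 FPKM in SOT folds, 720.3 ± 245 FPKM in untreated folds and 2321 ± 82.5 FPKM in normal folds (SD, n = 3 each), the highest sum of any step in normal folds. Phosphoglycerate mutase summed to 253 ± 62.3 FPKM in SOT folds, 277 ± 68.3 FPKM in untreated folds and 744 ± 28.1 FPKM in normal folds. Both steps were lower in all 6 injured libraries than in any normal library, and so were phosphofructokinase, triosephosphate isomerase, glyceraldehyde-3-phosphate dehydrogenase and enolase.

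Hexokinase, phosphoglycerate kinase, pyruvate kinase and lactate dehydrogenase did not follow this order, and in these 4 steps the sum was higher in every untreated library than in any normal library. Pyruvate kinase summed to 408 ± 118 FPKM in SOT folds, 573 ± 20.5 FPKM in untreated folds and 412 ± 16.3 FPKM in normal folds. Lactate dehydrogenase summed to 699.8 ± 202 FPKM in SOT folds, 880.1 ± 11.2 FPKM in untreated folds and 670.4 ± 5.58 FPKM in normal folds. All SOT libraries were below the untreated libraries in pyruvate kinase, and SOT replicates 2 and 3 were below every normal library in both steps, whereas SOT replicate 1 was the highest of all libraries in lactate dehydrogenase. Enolase summed to 476 ± 98.2 FPKM in SOT folds, 630.0 ± 42.2 FPKM in untreated folds and 793 ± 46.8 FPKM in normal folds, so the untreated mean was 0.794 times the normal mean. That ratio was 0.31 for aldolase, 0.373 for phosphoglycerate mutase, 1.299 for hexokinase, 1.29 for phosphoglycerate kinase, 1.39 for pyruvate kinase and 1.31 for lactate dehydrogenase. These sums are descriptions and were not tested.

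**Figure D1:**
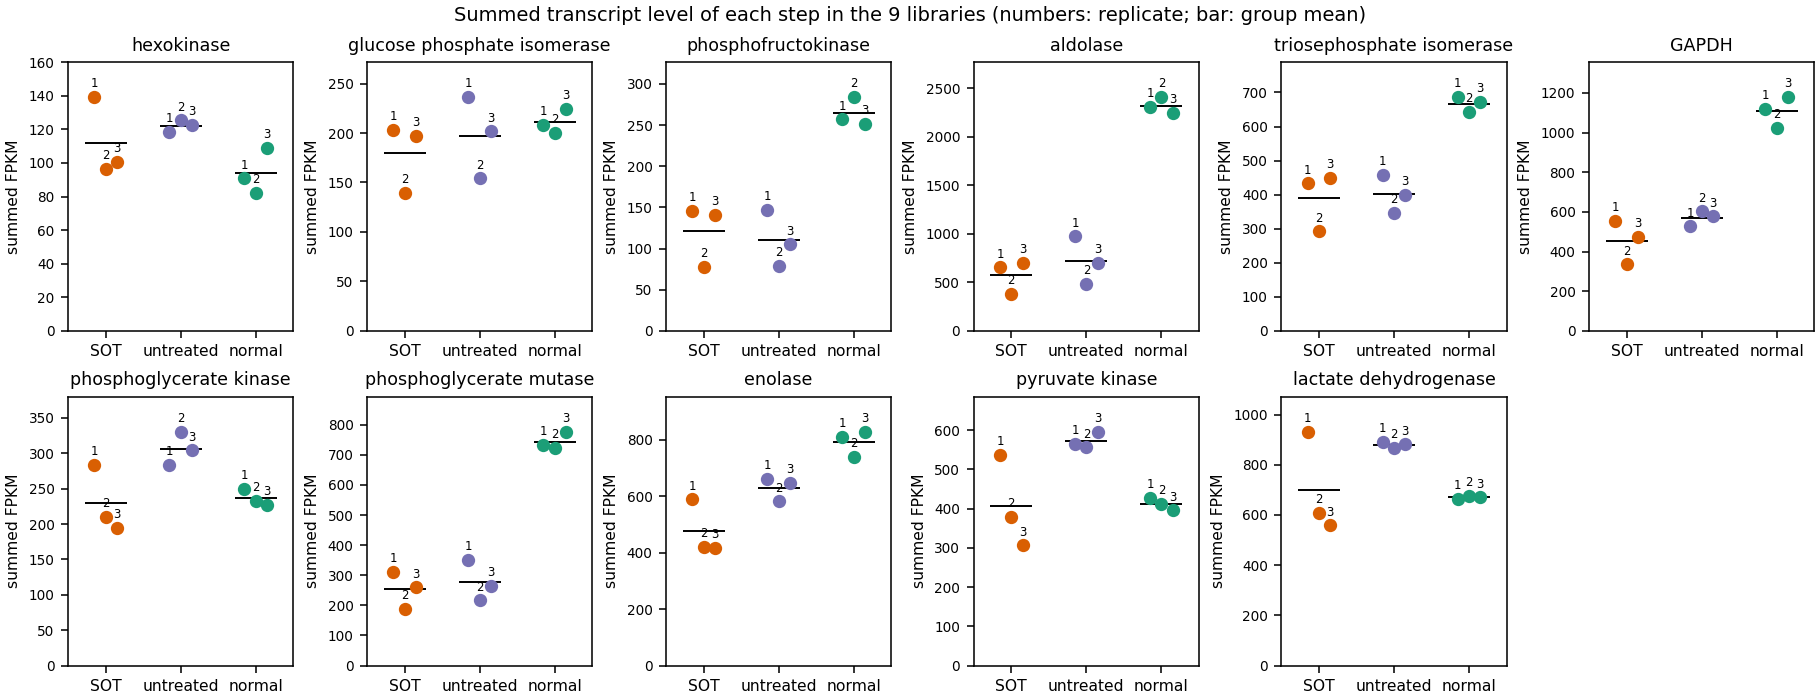
Summed FPKM of the genes of each step from hexokinase to lactate dehydrogenase, in each library (points, numbered by replicate), with the group mean as a bar and a linear axis from 0. Aldolase lay at 379 to 698 FPKM in SOT libraries, 485 to 974 FPKM in untreated libraries and 2245 to 2409 FPKM in normal libraries, whereas untreated libraries were above normal libraries for hexokinase, phosphoglycerate kinase, pyruvate kinase and lactate dehydrogenase.

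In untreated injured folds 3 muscle isoenzymes were lower, and the general forms of the same 3 steps higher, than in normal folds. In edgeR's quasi-likelihood test over 17344 genes, with Benjamini-Hochberg adjusted p under 0.05 as the threshold for having risen or fallen, 52 members were tested, of which 11 rose, 12 fell and 29 did not pass. This was 44.2% of the tested members, against 32.8% of all genes tested (17.7% risen and 15.1% fallen). The median log2 fold change was 0.04 over the members and -0.02 over all genes, so members with positive and negative fold changes were about balanced. In 31 members (59.6%) the untreated and normal libraries did not overlap, 18 of them higher and 13 lower, against 55.1% of all genes (28% higher and 27.1% lower). Among the 44 enzymes tested, 9 rose, 12 fell and 23 did not pass. Of the 23 calls among members, 13 held in all 9 fits that left out a library. The number fallen was 7 without untreated replicate 2, 4 without untreated replicate 3, 5 without normal replicate 1 and 6 without normal replicate 2. The shares of all genes called in these smaller fits are not given.

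Muscle isoenzymes were lower in all injured libraries than in any normal library. Of the 4, PFKM, PGAM2 and ENO3 fell and FBP2 did not pass, or 75% called against 32.8% of all genes. Their median log2 fold change was -2.73 (all genes -0.02). PGAM2, the muscle form of phosphoglycerate mutase (OryCun2.0 chromosome 10, 44639812 to 44641645), had 130.1, 32.4 and 145 CPM in the SOT libraries, 193, 14.8 and 79.7 CPM in the untreated libraries and 656, 650.1 and 684 CPM in the normal libraries. All 6 injured libraries were far below the normal libraries, and replicate 2 was lowest in each injured group (log2 fold change -2.79 with SE 0.85, adjusted p = 0.037, untreated against normal). ENO3, the muscle enolase (chromosome 19, 12469861 to 12474747), had 115, 25.0 and 173 CPM in the SOT libraries, 255, 18.0 and 105 CPM in the untreated libraries and 936, 828 and 852 CPM in the normal libraries. Its order across libraries was close to that of PGAM2, with untreated replicate 2 at the bottom and no overlap with normal folds (log2 fold change -2.79 with SE 0.93, adjusted p = 0.0486).

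PFKM, the muscle subunit of phosphofructokinase, the step most subject to regulation, had 297, 85.5 and 302 CPM in the SOT libraries, 316, 64.5 and 156 CPM in the untreated libraries and 769, 845 and 728 CPM in the normal libraries. It too was lower in every injured library than in any normal library (log2 fold change -2.13 with SE 0.61, adjusted p = 0.0301). FBP2, the muscle fructose bisphosphatase, had 8.14, 0.953 and 9.61 CPM in the SOT libraries, 14.1, 0.955 and 4.96 CPM in the untreated libraries and 48.7, 43.5 and 34.3 CPM in the normal libraries. The libraries of the 2 groups did not overlap, but the difference did not pass (log2 fold change -2.66 with SE 0.98, adjusted p = 0.0686).

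The summed muscle markers given above moved with these 4 genes, and their part in the result was not tested. A ratio to that sum, chosen after its values were seen, is given as a description. Per 1000 CPM of muscle markers, PGAM2 was at 12.3 to 15.7 in SOT libraries, 15.02 to 20.3 in untreated libraries and 21.0 to 25.0 in normal libraries. ENO3 was at 10.9 to 17.7 in SOT libraries, 18.2 to 26.7 in untreated libraries and 26.2 to 31.9 in normal libraries by the same ratio. PFKM was at 28.1 to 41.5 in SOT libraries, 33.1 to 65.3 in untreated libraries and 22.4 to 32.5 in normal libraries. FBP2 was at 0.463 to 0.988 in SOT libraries, 0.967 to 1.47 in untreated libraries and 1.05 to 1.68 in normal libraries. Between untreated and normal libraries this ratio was lower for PGAM2, overlapped for ENO3 and FBP2 and was higher for PFKM. Any transcripts from other cells would raise the ratio where the marker sum is low. The PFKM call was lost without untreated replicate 2 or 3 or any normal library (adjusted p up to 0.104). The PGAM2 call was lost without untreated replicate 3 or any normal library (up to 0.122), and the ENO3 call without SOT replicate 1, untreated replicate 2 or 3 or any normal library (up to 0.146). ENO3 also missed the threshold when no filter on low counts was used (adjusted p = 0.0507). Without untreated replicate 1 the folds were larger, with log2 fold changes of -2.82 for PFKM, -3.81 for PGAM2 and -3.82 for ENO3. With untreated replicate 2 and SOT replicate 2 both left out, an alternative added after seeing the data, the calls held, with log2 fold changes of -1.73 for PFKM (adjusted p = 0.012), -2.28 for PGAM2 (adjusted p = 0.00983) and -2.27 for ENO3 (adjusted p = 0.0123).

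Of the 15 forms found in most cells, 4 rose (ENO1, PGAM1, PFKP and PFKL), 3 fell (ALDOA, GAPDH and TPI1) and 8 did not pass. The calls made up 46.7% of these forms, against 32.8% of all genes. The 4 that rose belong to the same 3 steps as the muscle isoenzymes that fell. Markers of some other cell types rose in the same libraries and those of others fell, and their part in these results was not tested. All 7 cartilage markers fell, as did 7 of 10 nerve and Schwann cell markers. Of 6 stratified epithelium markers 1 rose, and of 7 airway gland and cilia markers 1 rose and 2 fell. All 5 neutrophil markers rose. Of 6 fibroblast markers 4 rose and 1 fell, with summed levels of 18506 to 37842 CPM in SOT libraries, 41776 to 43769 CPM in untreated libraries and 10663 to 13158 CPM in normal libraries. Of 5 endothelial markers 3 rose, with sums of 487 to 1470.3 CPM in SOT libraries, 1208 to 1365 CPM in untreated libraries and 363 to 607 CPM in normal libraries, and all 10 macrophage markers rose. ENO1, the general enolase (chromosome 13, 141110303 to 141121549), had 994, 737 and 527 CPM in the SOT libraries, 1012, 1187 and 1176 CPM in the untreated libraries and 389, 363 and 493 CPM in the normal libraries. Every untreated library was above every normal library (log2 fold change 1.44 with SE 0.24, adjusted p = 0.0035). PGAM1, the general phosphoglycerate mutase (chromosome 18, 45630375 to 45638825), had 330.3, 261 and 167 CPM in the SOT libraries, 322, 395 and 357 CPM in the untreated libraries and 161, 146 and 161 CPM in the normal libraries. The untreated libraries were again all above the normal libraries (log2 fold change 1.20 with SE 0.23, adjusted p = 0.00571), and SOT replicate 3 was close to normal.

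For phosphofructokinase both general subunits rose in untreated folds. The liver-type subunit PFKL, listed under LOC103347367 and named PFKL in the RefSeq gene table of another assembly (mOryCun1.1), had 34.6, 29.0 and 25.2 CPM in the SOT libraries, 39.5, 39.2 and 41.6 CPM in the untreated libraries and 24.2, 20.6 and 20.2 CPM in the normal libraries (log2 fold change 0.89 with SE 0.14, adjusted p = 0.00273). Its gene model is described as partial, so its level per length is uncertain. PFKP, the platelet-type subunit, had 65.8, 57.3 and 43.9 CPM in the SOT libraries, 60.8, 78.7 and 62.7 CPM in the untreated libraries and 36.3, 47.9 and 47.9 CPM in the normal libraries (log2 fold change 0.61 with SE 0.18, adjusted p = 0.0342). The PFKP call was lost without SOT replicate 2, untreated replicate 2 or 3 or any normal library (adjusted p up to 0.123), while ENO1, PGAM1 and PFKL passed in all 9 fits that left out a library.

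**Figure D2:**
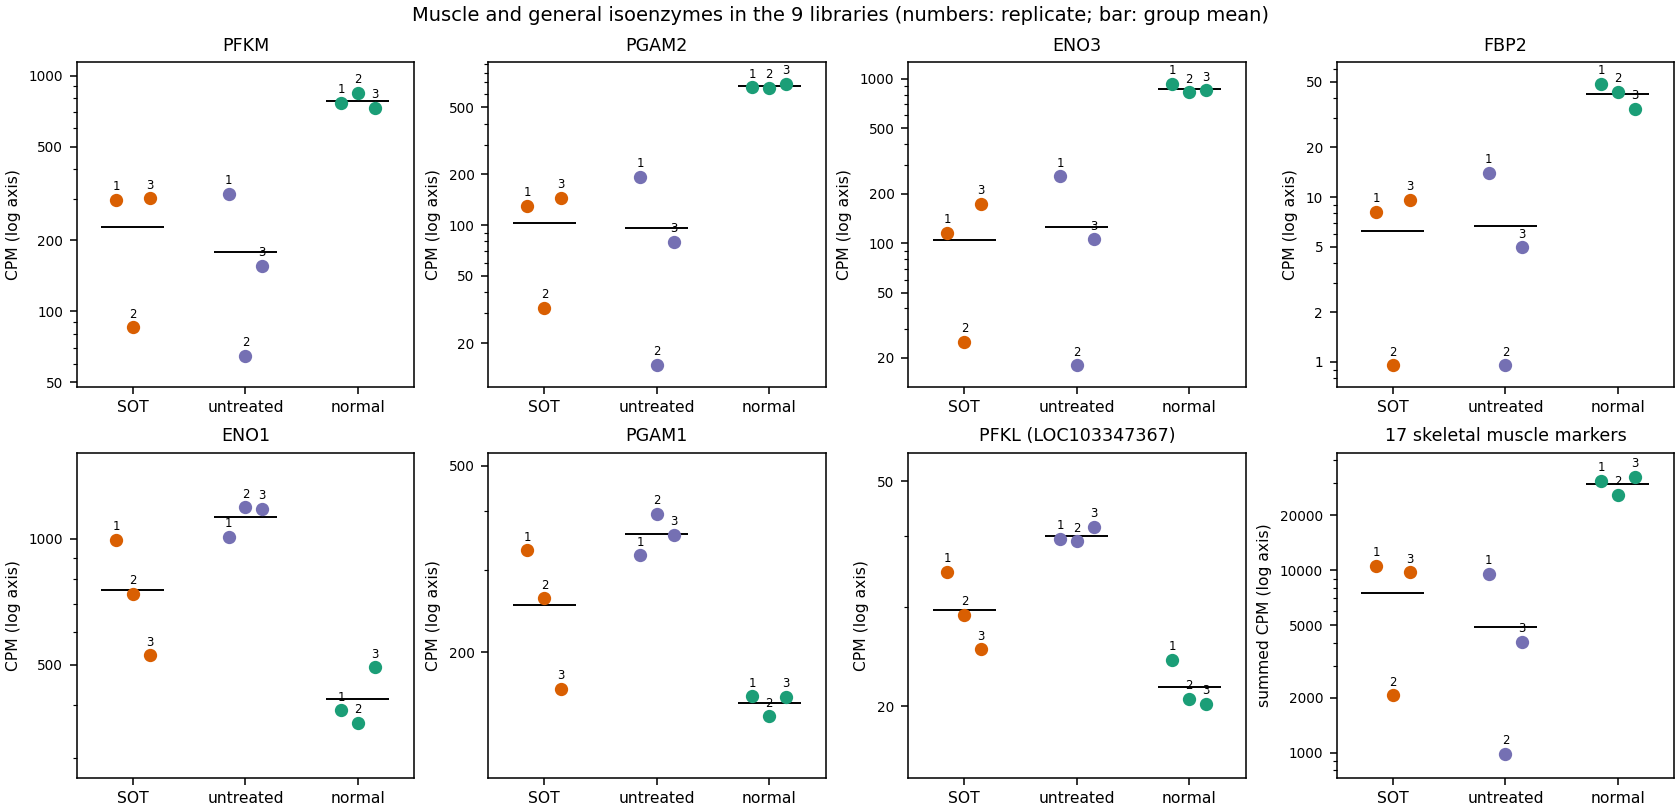
CPM on log axes of the muscle forms PFKM, PGAM2, ENO3 and FBP2, the general forms ENO1, PGAM1 and PFKL, and the sum of 17 skeletal muscle markers, in each library (points, numbered by replicate) with the group mean as a bar. The muscle forms and the marker sum were lowest in replicate 2 of both injured groups and highest in normal libraries, where ENO3 lay at 828 to 936 CPM, and ENO1 was highest in untreated libraries at 1012 to 1187 CPM.

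Expressed as a share of the summed FPKM of its family, the enolase of normal folds was mainly ENO3 and that of injured folds mainly ENO1. ENO1 made up 83.3 ± 13.2% of enolase in SOT folds, 86.6 ± 11.9% in untreated folds and 25.8 ± 3.49% in normal folds (SD, n = 3 each). ENO3 made up 16.2 ± 13.4% in SOT folds, 12.7 ± 11.8% in untreated folds and 74.0 ± 3.40% in normal folds. PGAM2 made up 41.6 ± 21.6% of phosphoglycerate mutase in SOT folds, 30.1 ± 23.4% in untreated folds and 89.1 ± 0.438% in normal folds. The injured groups spread widely, and replicate 2 held the smallest share of the muscle form in each, 19.3% in the SOT library and 6.72% in the untreated library.

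PFKM made up 55.6 ± 18.0% of phosphofructokinase in SOT folds, 42.7 ± 19.2% in untreated folds and 86.8 ± 0.806% in normal folds. For these 4 genes the untreated and normal libraries did not overlap. With 3 libraries against 3, the smallest p of a two-sided exact permutation test is 0.1, which each of these shares reached, so none could pass 0.05. Over the 54 comparisons of 18 shares the smallest adjusted p was 0.174. FBP2 made up 36.5 ± 24.1% of fructose bisphosphatase in SOT folds, 49.0 ± 19.9% in untreated folds and 75.5 ± 10.7% in normal folds, and its untreated and normal shares overlapped (exact p = 0.2).

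**Figure D3:**
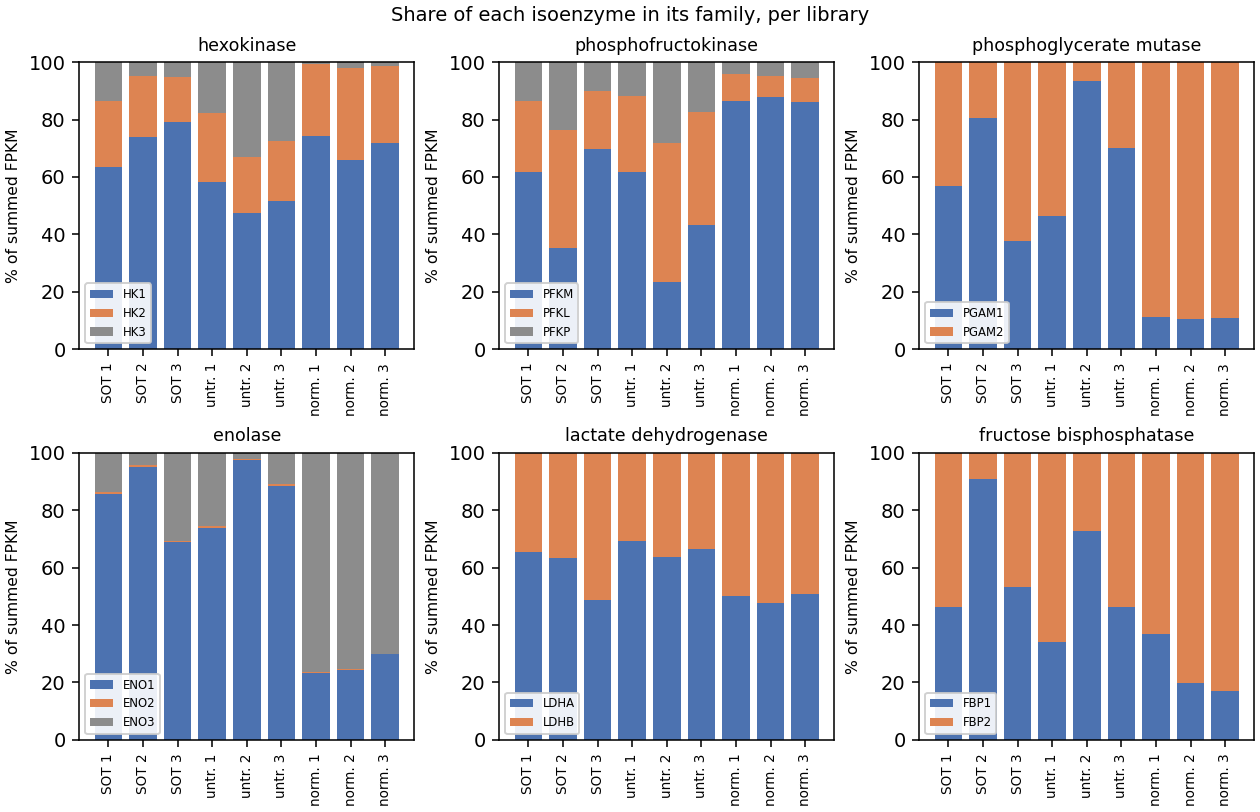
Share of each isoenzyme in the summed FPKM of its family (percent, stacked to 100) in each of the 9 libraries, for hexokinase, phosphofructokinase, phosphoglycerate mutase, enolase, lactate dehydrogenase and fructose bisphosphatase. The share of ENO1 lay at 68.9 to 95.1% in SOT libraries, 73.8 to 97.3% in untreated libraries and 23.3 to 29.8% in normal libraries.

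Among the hexokinases of the entry step, HK3 rose in untreated folds and HK1 and HK2 did not pass. HK3, the hexokinase of leukocytes (chromosome 3, 57363595 to 57377955), had 55.6, 11.1 and 14.0 CPM in the SOT libraries, 64.6, 125 and 99.99 CPM in the untreated libraries and 1.98, 4.68 and 4.74 CPM in the normal libraries. The untreated libraries were all above the normal libraries, and SOT replicate 1 was closer to the lowest untreated library than to the other SOT libraries (log2 fold change 4.66 with SE 0.72, adjusted p = 0.00268, untreated against normal). HK1, the general form and the highest per length at this step (chromosome 18, 17383858 to 17476156), had 315, 203 and 259.8 CPM in the SOT libraries, 252, 213 and 224 CPM in the untreated libraries and 240.4, 183 and 281 CPM in the normal libraries. HK2, the insulin-responsive form of muscle and fat, is counted here among the 15 general forms. It was between 58.1 and 130.2 CPM over all 9 libraries. For HK1 and HK2 the groups overlapped (adjusted p = 0.914 and 0.936).

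HK3 made up 7.78 ± 4.87% of the summed FPKM of HK1, HK2 and HK3 in SOT folds, 26.2 ± 7.72% in untreated folds and 1.39 ± 0.645% in normal folds. The summed neutrophil markers (5 of the 6 listed were in the table) were 3270.4, 1030.4 and 909.7 CPM in SOT libraries, 3265, 5127 and 4126 CPM in untreated libraries and 164, 236 and 590.3 CPM in normal libraries. All 5 neutrophil markers and all 10 macrophage markers rose in untreated against normal folds. Their part in the HK3 result was not tested. ADPGK, a kinase that uses ADP to phosphorylate glucose, had 53.5 ± 11.6 CPM in SOT folds, 63.5 ± 5.603 CPM in untreated folds and 46.3 ± 0.86 CPM in normal folds and did not pass in untreated against normal folds (adjusted p = 0.0569). HKDC1 was below 4 CPM in all libraries.

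The steps that split and oxidise the sugar were lower in injured folds, and ALDOA, TPI1 and GAPDH carried most of their transcripts. GPI, the isomerase ahead of them, had 461, 297 and 416 CPM in the SOT libraries, 565, 372 and 476 CPM in the untreated libraries and 494, 467 and 517 CPM in the normal libraries, overlapped between groups and did not pass (adjusted p = 0.833). ALDOA, the aldolase of muscle and most other cells (chromosome 6, 18443387 to 18448736), had 1361, 737 and 1346 CPM in the SOT libraries, 2139.8, 1081 and 1527 CPM in the untreated libraries and 4865, 4644 and 4696 CPM in the normal libraries. All injured libraries were below all normal libraries, and replicate 2 was lowest in both injured groups, as in the summed muscle markers (log2 fold change -1.58 with SE 0.31, adjusted p = 0.00676). Per 1000 CPM of muscle markers, ALDOA was at 129 to 358 in SOT libraries, 224 to 1095 in untreated libraries and 144 to 179 in normal libraries, so this ratio was higher in untreated than in normal libraries. Because other cells also make ALDOA, this ratio can rise through a lower marker sum alone, and it does not give the level of ALDOA within muscle. The part of muscle content in the ALDOA result was not tested. By FPKM, ALDOA made up 97.6 ± 0.0917% of aldolase in SOT folds, 98.4 ± 0.18% in untreated folds and 93.4 ± 4.46% in normal folds.

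GAPDH, which oxidises glyceraldehyde 3-phosphate (chromosome 8, 32580489 to 32584701), had 786, 446 and 624 CPM in the SOT libraries, 786, 908 and 849.8 CPM in the untreated libraries and 1659, 1489 and 1695 CPM in the normal libraries and fell in untreated folds (log2 fold change -0.93 with SE 0.20, adjusted p = 0.0105). TPI1, the triosephosphate isomerase gene on the same chromosome at 32890140 to 32893373, had 640.3, 406 and 616 CPM in the SOT libraries, 712, 546 and 613 CPM in the untreated libraries and 1060.4, 975 and 1009 CPM in the normal libraries and also fell (log2 fold change -0.70 with SE 0.19, adjusted p = 0.0249). Both were lower in every injured library than in any normal library. The TPI1 call was lost without untreated replicate 2 or 3 or normal replicate 1 or 2 (adjusted p up to 0.0929), and the ALDOA and GAPDH calls held in all 9 fits.

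Of the nervous-tissue forms, ALDOC fell and ENO2 did not pass. ALDOC, the brain aldolase (chromosome 19, 19580127 to 19583797), had 12.8, 10.95 and 24.5 CPM in the SOT libraries, 17.8, 10.7 and 12 CPM in the untreated libraries and 156, 489 and 122 CPM in the normal libraries. Normal replicate 2 was far above the other normal libraries, and all normal libraries were above all injured libraries (log2 fold change -4.24 with SE 0.61, adjusted p = 0.00217). Without normal replicate 2 its log2 fold change was -3.37 (adjusted p = 0.00339). Nerve and Schwann cell markers summed to 85.9, 40.6 and 73.9 CPM in SOT libraries, 59.3, 44.6 and 41.7 CPM in untreated libraries and 452, 664 and 336 CPM in normal libraries, and 7 of these 10 markers fell in untreated folds. Cartilage markers summed to 171, 115 and 531 CPM in SOT libraries, 139, 111 and 77.1 CPM in untreated libraries and 2774, 4513 and 2214 CPM in normal libraries, and all 7 fell. Normal replicate 2 was highest in both marker sums as in ALDOC. It was also the highest normal library in the airway gland and cilia, macrophage, fibroblast and endothelial sums. In the muscle, neutrophil and stratified epithelium sums normal replicate 3 was highest. The part of any of these cell types in the ALDOC result was not tested. ENO2, the neuronal enolase, was at 2.81 to 10.8 CPM in SOT libraries, 9.84 to 14.3 CPM in untreated libraries and 2.64 to 6.20 CPM in normal libraries. It stood higher in untreated than in normal folds without overlap but did not pass (log2 fold change 1.28 with SE 0.49, adjusted p = 0.0775), so the brain forms of aldolase and enolase had fold changes of opposite sign.

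At phosphoglycerate kinase, pyruvate kinase and lactate dehydrogenase the main gene stood higher in every untreated than in any normal library, without passing. PGK1, the phosphoglycerate kinase gene on chromosome X at 69851772 to 69870775, had 539, 368 and 341 CPM in the SOT libraries, 568, 669 and 606 CPM in the untreated libraries and 495, 445 and 429.7 CPM in the normal libraries. PKM, the pyruvate kinase of most tissues (chromosome 17, 304096 to 317843), had 1008, 668 and 535 CPM in the SOT libraries, 1119, 1111 and 1164 CPM in the untreated libraries and 839.7, 794 and 754 CPM in the normal libraries. In both genes the untreated libraries were above every normal library, but neither passed (adjusted p = 0.107 and 0.106). The table gave 1 value for PKM and did not separate its muscle-type and embryonic-type splice forms.

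LDHA, whose subunit favours the making of lactate, had 1127, 667 and 443 CPM in the SOT libraries, 1195, 990.5 and 1065 CPM in the untreated libraries and 607, 580.1 and 601 CPM in the normal libraries. LDHB, the subunit typical of heart, was at 292 to 449.9 CPM in SOT libraries, 405 to 429 CPM in untreated libraries and 442 to 486 CPM in normal libraries. The untreated libraries were above the normal libraries for LDHA (log2 fold change 0.86 with SE 0.30, adjusted p = 0.0543) and below them for LDHB (log2 fold change -0.16 with SE 0.16, adjusted p = 0.476), and neither passed. LDHA passed without SOT replicate 1 or without SOT replicate 3, with adjusted p = 0.011 as the lowest. LDHA made up 59.2 ± 9.28% of the summed FPKM of LDHA and LDHB in SOT folds, 66.4 ± 2.74% in untreated folds and 49.5 ± 1.70% in normal folds, and the untreated and normal shares did not overlap (exact p = 0.1). Copies of these genes may share reads with them, namely LOC100351519 and LOC100355262, described as LDHA-like, and LOC100348124, described as phosphoglycerate kinase 1. LOC100351519 was at 67.2 to 103 CPM in SOT libraries, 107 to 203 CPM in untreated libraries and 119 to 126 CPM in normal libraries, and no copy passed in untreated against normal folds.

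Gluconeogenic phosphatases were at unlike levels, from G6PC with few or no counts to G6PC3 with group means of 22.3 to 23.2 FPKM. FBP2, given above, averaged 5.09 FPKM in SOT folds, 4.97 FPKM in untreated folds and 32.1 FPKM in normal folds. FBP1, the liver and kidney fructose bisphosphatase (chromosome 1, 73587933 to 73620117, beside FBP2), had 8.67, 11.8 and 13.4 CPM in the SOT libraries, 8.95, 3.14 and 5.26 CPM in the untreated libraries and 34.9, 13.2 and 8.78 CPM in the normal libraries. The untreated and normal libraries overlapped at normal replicate 3 and untreated replicate 1, although the test called it fallen (log2 fold change -1.71 with SE 0.55, adjusted p = 0.0441). The call was lost without untreated replicate 2 or 3, normal replicate 1 or 2 or any SOT library, and without normal replicate 1 the log2 fold change was -0.92 (adjusted p = 0.157). G6PC3, the glucose-6-phosphatase of most cells, was at 31.9 to 39.4 CPM in SOT libraries, 35.7 to 40.9 CPM in untreated libraries and 33.2 to 40.4 CPM in normal libraries. G6PC, the liver form, had 0 counts in every injured library and 0, 12 and 4 counts in the normal libraries, and it was not tested. Airway gland and cilia markers summed to 1157, 496 and 449 CPM in SOT libraries, 883, 278 and 379 CPM in untreated libraries and 12249, 14683 and 1449 CPM in normal libraries. Normal replicate 3 was lowest of the normal libraries in FBP1 and this sum. Of these 7 markers, AQP5 and BPIFB1 fell, 1 rose and 4 did not pass in untreated folds, so the lower sum was not shared by all of them. Their part in these values was not tested.

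Of the 11 side-branch enzymes, 4 rose and 4 fell in untreated folds, or 72.7% called against 32.8% of all genes. BPGM is counted among these 11 as well as in the sum of the phosphoglycerate mutase step. ALDH1A3, a retinaldehyde dehydrogenase that makes retinoic acid, had 37.1, 50.7 and 14.9 CPM in the SOT libraries, 88.3, 146 and 128 CPM in the untreated libraries and 18.9, 17.8 and 14.7 CPM in the normal libraries, with untreated libraries above all others (log2 fold change 2.82 with SE 0.41, adjusted p = 0.0023, untreated against normal). LOC103346087, described as aldehyde dehydrogenase ALDH3B1, had 6.28, 6.13 and 4.89 CPM in the SOT libraries, 8.45, 10.1 and 10.3 CPM in the untreated libraries and 3.23, 4.84 and 3.45 CPM in the normal libraries (log2 fold change 1.32 with SE 0.21, adjusted p = 0.00308). The neighbouring genes LOC100343223 and LOC100346892, both described as an NADP-dependent alcohol dehydrogenase, rose by 0.99 and 0.72 on the log2 scale (adjusted p = 0.00279 and 0.0237). The LOC100346892 call was lost without untreated replicate 2 or 3 or normal replicate 1 or 2 (adjusted p up to 0.0868).

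The side-branch enzymes that fell work on acetate, glucose phosphate and bisphosphoglycerate. ACSS1, the mitochondrial acetyl-CoA synthetase, had 50.04, 24.3 and 72.9 CPM in the SOT libraries, 58.0, 27.5 and 38.9 CPM in the untreated libraries and 201, 227 and 183 CPM in the normal libraries and was lower in every injured library (log2 fold change -2.30 with SE 0.40, adjusted p = 0.00446). ACSS2, the cytosolic acetyl-CoA synthetase, had 129, 108 and 115 CPM in the SOT libraries, 171, 57.8 and 95.6 CPM in the untreated libraries and 399, 299 and 139.7 CPM in the normal libraries. Its libraries overlapped between untreated and normal folds, and the call (log2 fold change -1.37 with SE 0.45, adjusted p = 0.0458) was lost without any SOT library, without untreated replicate 2 or 3 and without normal replicate 1 or 2 (adjusted p up to 0.147). PGM1, which links glucose 6-phosphate with glycogen, had 134, 65.0 and 117 CPM in the SOT libraries, 156, 91.4 and 118 CPM in the untreated libraries and 302, 303 and 251 CPM in the normal libraries (log2 fold change -1.23 with SE 0.28, adjusted p = 0.0128), and it missed the threshold only without untreated replicate 3 (adjusted p = 0.053). BPGM, the enzyme that makes 2,3-bisphosphoglycerate in red cells, was at 13.4 to 14.3 CPM in SOT libraries, 9.83 to 16.4 CPM in untreated libraries and 16.4 to 37.9 CPM in normal libraries. The BPGM call (log2 fold change -0.98 with SE 0.30, adjusted p = 0.0376) was lost without untreated replicate 1 or 3 or normal replicate 1 or 3 (adjusted p up to 0.111). PGM2, GALM and MINPP1 did not pass, with log2 fold changes of 0.02, 0.33 and 0.03.

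Testis forms were near the limit of detection. PGK2 had 0 counts in all SOT libraries, 0, 0 and 4 counts in the untreated libraries and 0, 4 and 12 counts in the normal libraries, and the lactate dehydrogenase C gene (LOC100343171) had at most 4 counts in a library. GAPDHS and ENO4 had means under 2 CPM in every group and did not pass. PKLR, the pyruvate kinase of liver and red cells, averaged 0.354 ± 0.14 CPM in SOT folds, 0.442 ± 0.274 CPM in untreated folds and 0.447 ± 0.0913 CPM in normal folds.

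Of the 8 members described as other proteins, ARID5A and ARID5B rose in untreated folds and 6 did not pass. This was 25% called, below the 32.8% of all genes tested. ARID5A, known in mice as a stabiliser of inflammatory mRNA, had 35.1, 19.5 and 19.5 CPM in the SOT libraries, 32.1, 34.5 and 37.5 CPM in the untreated libraries and 12.3, 17.7 and 14.4 CPM in the normal libraries (log2 fold change 1.23 with SE 0.25, adjusted p = 0.00783). ARID5B, a chromatin-associated factor, had 165, 139 and 130.00 CPM in the SOT libraries, 193, 168 and 176 CPM in the untreated libraries and 88.6, 80.5 and 102 CPM in the normal libraries (log2 fold change 0.98 with SE 0.13, adjusted p = 0.00171). In both genes the untreated libraries were above all normal libraries.

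**Figure D4:**
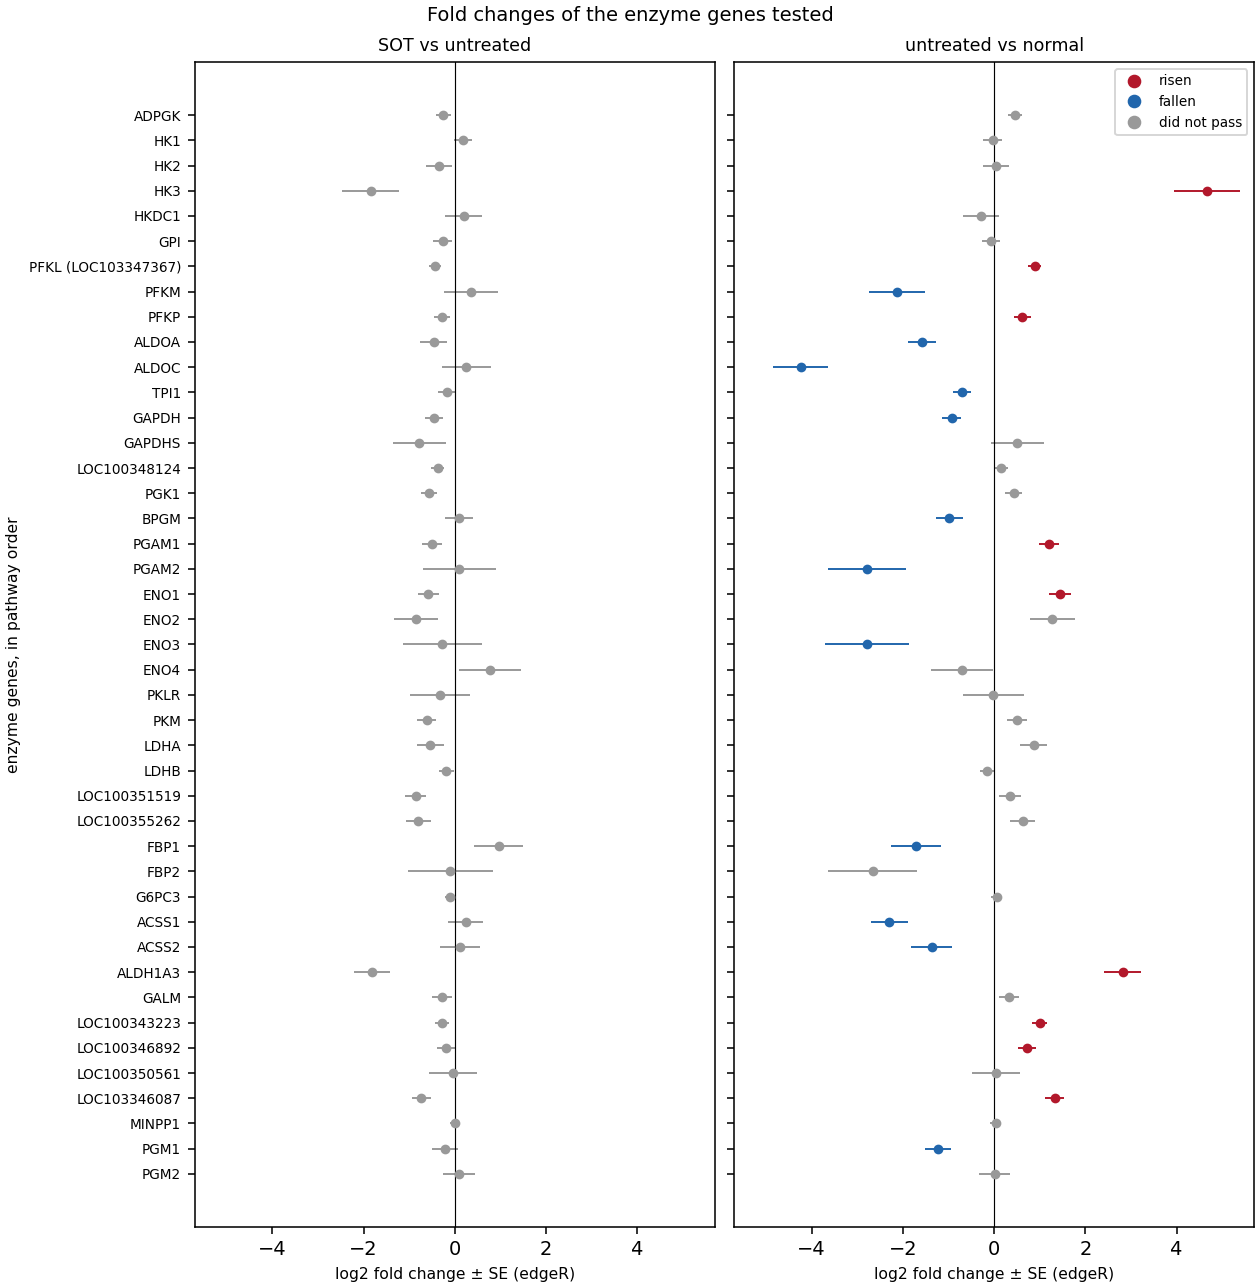
Log2 fold change with its standard error (edgeR) of tested enzymes in pathway order, in SOT against untreated folds on the left and untreated against normal folds on the right. Red marks genes that rose, blue genes that fell and grey genes that did not pass; 9 rose and 12 fell in untreated against normal folds, and no enzyme passed in SOT against untreated folds.

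SOT folds were compared with untreated folds to ask what the gel changed in injured tissue, and the untreated libraries are the same as in the comparison with normal folds. No member passed, against 0.0115% of all genes tested (2 of 17344), and DESeq2 called 3 of the 52 members, all lower, against 3.65% of the genes it tested. At an unadjusted p under 0.05 there were 12 members, or 23.1% of the 52, and each of them had a negative fold change, against 12.6% of all genes (7.59% lower and 5.06% higher). In 12 members every SOT library was below every untreated library, against 12.4% of all genes, and no member stood above without overlap, against 7.4% of all genes. The median log2 fold change was -0.27 over the members and 0.01 over all genes, and it was negative in 37 of the 52 members.

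The 12 members were the enzymes ALDH1A3, ENO1, HK3, PFKL, PGK1, PKM and LOC103346087 (ALDH3B1), the copies LOC100348124, LOC100351519 and LOC100355262, and ARID5B and SOGA1. They thus came from the entry step, the committed step and the payoff steps as well as from side branches. ALDH1A3 had the smallest p and a log2 fold change of -1.82 (SE 0.40, adjusted p = 0.166 by edgeR and 0.00142 by DESeq2). The mean CPM of SOT folds lay between the untreated and normal means in 6 of the 12, namely ALDH1A3, HK3, ENO1, PFKL, LOC103346087 and ARID5B. In the other 6 it lay below the normal mean, as in PGK1 (416 CPM in SOT folds, 614 CPM in untreated folds and 457 CPM in normal folds) and PKM (737 CPM in SOT folds, 1131 CPM in untreated folds and 796 CPM in normal folds). The other 2 DESeq2 calls were LOC100351519 and LOC103346087 (adjusted p = 0.0412 and 0.0428).

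HK3 had a log2 fold change of -1.84 (SE 0.63, adjusted p = 0.294) and averaged 26.9 ± 24.9 CPM in SOT folds and 96.4 ± 30.1 CPM in untreated folds. SOT replicate 1, at 55.6 CPM, was close to the lowest untreated library, and the same library had the highest neutrophil and macrophage marker sums of the SOT group. It was also the highest SOT library in the muscle, nerve and Schwann cell, airway gland and cilia, and endothelial sums. In the stratified epithelium and cartilage sums SOT replicate 3 was highest, and in the fibroblast sum SOT replicate 2. Without SOT replicate 1 the log2 fold change of HK3 was -2.91 (adjusted p = 0.0242), that of PGK1 -0.76 (adjusted p = 0.0387, against 0.287 with it) and that of PKM -0.88 (adjusted p = 0.0367, against 0.304 with it). These 3 members then passed as fallen, and no other member did. The share of all genes called in that fit is not given, so this count cannot be set against a background. All 10 macrophage markers were lower in every SOT library than in any untreated library, as were 3 of 5 neutrophil markers, and their part in the members' values was not tested. Without both replicates with little muscle, untreated 2 and SOT 2, the log2 fold change of HK3 was -1.24 (adjusted p = 0.683).

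The share of HK1 in the summed FPKM of HK1, HK2 and HK3 was 72.3 ± 8.04% in SOT folds, 52.3 ± 5.44% in untreated folds and 70.6 ± 4.27% in normal folds. The SOT libraries did not overlap the untreated libraries in this share (exact p = 0.1). Shares of a family depend on each other, and the HK3 share was 7.78 ± 4.87% in SOT folds and 26.2 ± 7.72% in untreated folds. The HK1 share is therefore not a separate result, and HK1 itself overlapped between these groups in CPM. The muscle isoenzymes gave no difference in this comparison beyond their spread, with log2 fold changes of 0.35 for PFKM (SE 0.59), 0.09 for PGAM2 (SE 0.80) and -0.28 for ENO3 (SE 0.87). Such standard errors leave room for differences of either sign. The shares of PGAM2 and ENO3 overlapped between SOT and untreated libraries, and leaving out untreated replicate 2 turned the sign of both differences. Leaving out SOT replicate 3 also turned the sign for ENO3, to -3.79 percentage points.

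**Figure D5:**
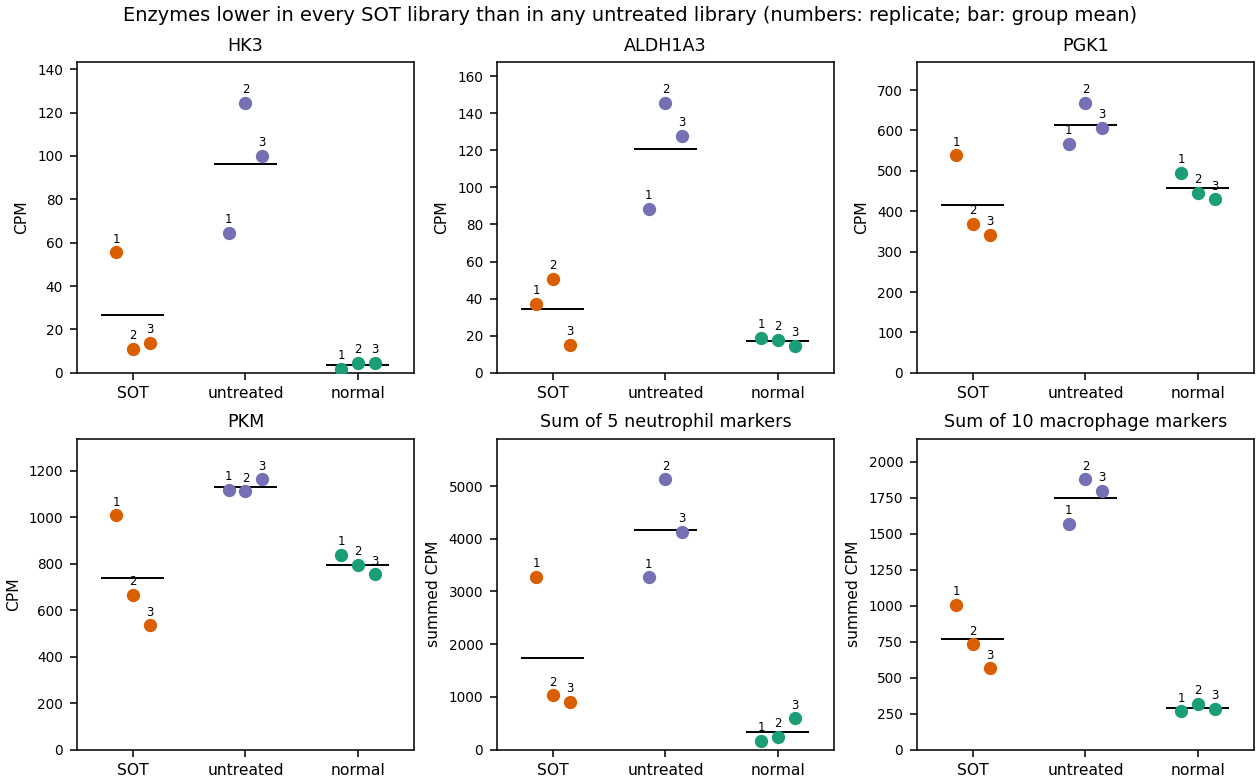
CPM of HK3, ALDH1A3, PGK1 and PKM, with the sums of 5 neutrophil and 10 macrophage markers, in each library (points, numbered by replicate) and the group mean as a bar, on linear axes from 0. In each of the 4 genes the SOT libraries lay below all untreated libraries, with HK3 at 11.1 to 55.6 CPM in SOT and 64.6 to 125 CPM in untreated libraries, and SOT replicate 1 was nearest to the untreated group in HK3, PGK1, PKM and the neutrophil sum.

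SOT folds were also set against normal folds, a comparison that shares its SOT libraries with the one above and its normal libraries with the comparison before. Of the 52 members tested, 4 rose, 6 fell and 42 did not pass, or 19.2% called against 16.7% of all genes (9.01% risen and 7.67% fallen), which is near that background. The 2 groups did not overlap in 25 members (48.1%), against 36.4% of all genes. The number risen was 10 without SOT replicate 3, 2 without SOT replicate 2, 2 without normal replicate 2 and 0 without normal replicate 1. Shares of all genes called in these fits are not given, so the swing is not a trait shown for the members. ALDOC (log2 fold change -3.99 with SE 0.60, adjusted p = 0.00716), ALDOA (log2 fold change -2.04 with SE 0.31, adjusted p = 0.00746), ACSS1 (log2 fold change -2.05 with SE 0.40, adjusted p = 0.014) and GAPDH (log2 fold change -1.38 with SE 0.21, adjusted p = 0.00683) fell and held in all 9 fits that left out a library. For ALDOC the log2 fold change was -3.11 without normal replicate 2. PGM1 and TPI1 also fell (adjusted p = 0.0147 and 0.0207), PGM1 being lost without normal replicate 1 (adjusted p = 0.051) and TPI1 without normal replicate 1 or 2 (up to 0.0671).

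HK3 rose in SOT against normal folds (log2 fold change 2.82 with SE 0.66, adjusted p = 0.0254), and with SOT replicate 1 left out its log2 fold change was 1.74 (adjusted p = 0.0329). Leaving out any normal library ended this call (adjusted p up to 0.0857). ENO1 rose (log2 fold change 0.86 with SE 0.24, adjusted p = 0.0409), but the call was lost in 7 of the 9 fits that left out a library, namely all but those without SOT replicate 3 or normal replicate 3 (adjusted p up to 0.123). ARID5B and LOC100343223 rose as well (adjusted p = 0.0139 and 0.0194), ARID5B being lost without normal replicate 1 (adjusted p = 0.0544) and LOC100343223 without SOT replicate 2 or normal replicate 1 (up to 0.0633). The muscle forms did not pass here, although all 4 were lower in every SOT library than in any normal library, with log2 fold changes of -1.78 for PFKM (adjusted p = 0.0784), -2.69 for PGAM2 (adjusted p = 0.0629), -3.07 for ENO3 (adjusted p = 0.0572) and -2.76 for FBP2 (adjusted p = 0.0885).

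Genes that feed, drain and regulate the pathway were read from 8 lists of 59 genes, of which 53 were in the table and 52 were tested. In untreated against normal folds 13 rose, 20 fell and 19 did not pass, or 63.5% called against 32.8% of all genes. None passed in SOT against untreated folds (9 had an unadjusted p under 0.05), and 2 rose and 14 fell in SOT against normal folds, or 30.8% called against 16.7% of all genes.

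Glucose enters cells through SLC2 carriers, of which 3 rose, 2 fell and 2 did not pass in untreated folds. SLC2A1, the general glucose carrier, had 214, 121 and 71.1 CPM in the SOT libraries, 148, 185 and 181 CPM in the untreated libraries and 42.4, 50.8 and 64.2 CPM in the normal libraries (log2 fold change 1.71 with SE 0.36, adjusted p = 0.00911, untreated against normal). SLC2A5, the fructose carrier, rose in untreated folds (log2 fold change 1.57 with SE 0.44, adjusted p = 0.0263) and had 0.184, 0.299 and 0.279 CPM in the SOT libraries, 1.23, 0.785 and 0.921 CPM in the untreated libraries and 0.369, 0.264 and 0.349 CPM in the normal libraries. The SLC2A5 call was lost without any untreated or normal library (adjusted p up to 0.0906). SLC2A12, another glucose carrier, fell (log2 fold change -1.05 with SE 0.14, adjusted p = 0.00176). In SOT against untreated folds SLC2A5 had the smallest p of this list, without passing (log2 fold change -1.94, adjusted p = 0.173).

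Among the carriers of pyruvate and lactate 2 rose, 2 fell and 2 did not pass in untreated folds. The lactate exporter SLC16A3 had 61.9, 19.8 and 11.4 CPM in the SOT libraries, 74.6, 99.3 and 96.7 CPM in the untreated libraries and 6.64, 11.5 and 6.38 CPM in the normal libraries, so SOT replicates 2 and 3 stood far below SOT replicate 1 and all untreated libraries (SOT against untreated log2 fold change -1.54, adjusted p = 0.315). EMB, a chaperone of monocarboxylate carriers, rose in untreated folds (log2 fold change 1.72 with SE 0.29, adjusted p = 0.00369). MPC1, a subunit of the mitochondrial pyruvate carrier, had 64.3, 41.4 and 60.0 CPM in the SOT libraries, 58.3, 40.9 and 43.8 CPM in the untreated libraries and 136, 136 and 123 CPM in the normal libraries and fell in untreated folds (log2 fold change -1.47 with SE 0.19, adjusted p = 0.00158) and in SOT folds against normal (log2 fold change -1.25 with SE 0.19, adjusted p = 0.00744).

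The enzymes that set fructose 2,6-bisphosphate, the activator of phosphofructokinase, also had forms that rose and forms that fell. PFKFB3, the inducible form, had 178, 115 and 67.3 CPM in the SOT libraries, 186, 189.9 and 199.6 CPM in the untreated libraries and 73.3, 61.6 and 56.3 CPM in the normal libraries and rose in untreated folds (log2 fold change 1.59 with SE 0.30, adjusted p = 0.00607). PFKFB1, the form of liver and muscle, had 1.25, 0.206 and 1.97 CPM in the SOT libraries, 3.77, 0.552 and 1.74 CPM in the untreated libraries and 27.4, 24.4 and 24.9 CPM in the normal libraries and fell (log2 fold change -3.66 with SE 0.82, adjusted p = 0.0115), a call lost without untreated replicate 3 (adjusted p = 0.054). PFKFB2 did not pass (adjusted p = 0.891). In PFKFB1, as in the muscle isoenzymes, replicate 2 was lowest in both injured groups.

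Kinases and phosphatases of pyruvate dehydrogenase mostly fell in untreated folds, with 4 fallen, 1 risen and 1 not passing. PDK2 was 58.8 ± 16.3 CPM in SOT folds, 54.1 ± 14.7 CPM in untreated folds and 132 ± 20.6 CPM in normal folds (log2 fold change -1.29 with SE 0.26, adjusted p = 0.00813, untreated against normal). PDK4, which blocks pyruvate oxidation on fasting, had 96.4, 32.7 and 46.3 CPM in the SOT libraries, 20.1, 29.6 and 27.4 CPM in the untreated libraries and 41.1, 50.8 and 59.5 CPM in the normal libraries. It was the only gene of the 8 lists that had an unadjusted p under 0.05 and a higher level in SOT than in untreated folds (log2 fold change 1.19, adjusted p = 0.268).

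Of 7 oxygen-sensing genes, 2 rose, 2 fell and 3 did not pass in untreated folds. HIF1A, the subunit that drives glycolytic genes when oxygen is low, had 492, 369 and 159 CPM in the SOT libraries, 521, 722 and 665 CPM in the untreated libraries and 95.1, 108 and 91.1 CPM in the normal libraries, and SOT replicate 3 was the lowest injured library. EGLN3, a prolyl hydroxylase that marks HIF subunits for decay, rose in untreated folds (log2 fold change 2.45 with SE 0.66, adjusted p = 0.0232), and EGLN1, the main prolyl hydroxylase of HIF, fell (log2 fold change -0.84 with SE 0.12, adjusted p = 0.00236). The EGLN3 call was lost without untreated replicate 1 or 3 or any normal library (adjusted p up to 0.0796). HIF1A also rose in SOT against normal folds (log2 fold change 1.79 with SE 0.36, adjusted p = 0.0153), a call lost without normal replicate 1 (adjusted p = 0.059).

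Glycogen genes fell in untreated folds in 6 of 10 cases, with 1 risen and 3 not passing. The phosphorylases of liver and muscle had fold changes of opposite sign. PYGL, the liver form, had 62.8, 27.8 and 9.59 CPM in the SOT libraries, 61.9, 107 and 88.2 CPM in the untreated libraries and 11, 13.5 and 8.23 CPM in the normal libraries and rose in untreated folds (log2 fold change 2.98 with SE 0.60, adjusted p = 0.00776). PYGM, the muscle form, had 227, 38.3 and 319.7 CPM in the SOT libraries, 603, 35.6 and 265 CPM in the untreated libraries and 1788, 1541 and 1405 CPM in the normal libraries, was lower in all injured libraries and did not pass (adjusted p = 0.0919). In the pentose phosphate branch PGD and TKT rose and RPIA fell in untreated folds (log2 fold changes 0.67, 0.85 and -0.51; adjusted p = 0.0221, 0.00571 and 0.0279). The PGD and RPIA calls each were lost in 5 of the 9 fits that left out a library (adjusted p up to 0.0765 and 0.102). Of the 6 genes of the serine and glycerol branches, PSAT1 and GPD1L fell and 4 did not pass.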

How the data were processed

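Polyadenylated RNA of 9 rabbit vocal fold libraries was measured. The deposited table gave a read count and an FPKM value per gene and library, per the file headers. In every library fewer genes had a count of 1 (53 to 79 genes) than of 2 (101 to 115) or 4 (350 to 419), whereas counts of single reads usually fall off from 1 upwards. How the counts were made is not stated in any source used here, so count floors and the p-values of count models are approximate. Cutadapt 1.9, HISAT2 2.0.4, StringTie 1.3.4d, edgeR and the build OryCun2.0 are named in the submitters' processing notes; strandedness and the handling of multiply matching reads were not stated in any source used here, so near-identical copies may share reads. Counts were fitted in R 4.3.3 with edgeR 4.0.16 (filterByExpr, TMM, quasi-likelihood, 1 mean per group over all 9 libraries, Benjamini-Hochberg over 17344 genes), which was tested on simulated data. Levels are CPM; FPKM served for sums and shares within families, without TMM. Shares were compared by two-sided exact permutation tests (SciPy 1.17.1). DESeq2 1.42.0 and limma 3.58.1 on log2(FPKM + 0.1) were alternatives. At 0 counts a library allows up to 3 counts, covering counting error only. Libraries of a group differed beyond sampling noise, so none was a duplicate. Values per library are given for members that passed with a log2 fold change of at least 1 in size and for the highest member of a step; pathway genes were named by smallest p, and PFKFB2, PYGM, PDK4 and the other examples outside these rules after their values were seen. Of 10 members named by a locus number, 1 was given a symbol from RefSeq. Some members are not reported here by name. Members and lists were chosen with earlier results of these data known.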

Additional observations from a re-analysis of the deposited data

How the results depend on the processing

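In untreated against normal folds the members' counts were 11 to 16 risen and 10 to 14 fallen under RLE scaling, no filter, 2 groups alone, limma and DESeq2, against 11 and 12. Leaving out a library gave 9 to 15 risen and 4 to 12 fallen, and without the 3 exclusions of the member rule 20 genes fell. In SOT against untreated folds DESeq2 called 3 fallen, and leaving out a library gave 0 to 3 fallen and 0 risen. In SOT against normal folds the members that rose numbered 1 with the 2 groups alone, 7 with limma on log2(FPKM + 0.1), 8 with limma on log2(FPKM + 1), 8 with DESeq2, 7 without the exclusions, 2 without untreated replicate 2 and SOT replicate 2, and 0 to 10 with a library left out. Those that fell numbered 14 with DESeq2, 12 without the exclusions, 10 without untreated replicate 2 and SOT replicate 2, and 4 to 8 with a library left out. Except where a fit had fewer libraries or more genes, the cause was not tested. For fits with a library left out, the shares of all genes called are not given. Their counts may therefore follow the number of calls over all genes. The SOT minus untreated share, in percentage points, ranged with a library left out from -0.193 to 23.2 for PGAM2, from -3.79 to 9.80 for ENO3 and from -23.4 to 1.29 for FBP2, so these 3 signs rest on single libraries.

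Replicate numbers recur in each group. Deviations from the group means correlated at -0.048 to 0.267 between same-numbered libraries, and 5 of 9 libraries correlated best with their own number. These values do not settle whether the numbers pair libraries. The labels name no pairing, so the main fit did not use the numbers. With the replicate number as a block, 13 members rose and 12 fell in untreated against normal folds, none passed in SOT against untreated folds, and 2 rose and 10 fell in SOT against normal folds. With the block the untreated against normal log2 fold change was -3.46 for PGAM2 and -3.52 for ENO3. Genes with a few counts per library, such as PGK2, G6PC and LOC100343171, are limited by depth.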
